A study of Mus musculus with 6 samples.

Results

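Among the protein-coding genes of mouse testis, 268 that the deposited table lists under a clone or model name, ending in Rik or built as Gm with a number, reached a mean of at least 20 FPKM in cKO or control libraries. FPKM is the number of sequenced fragments per kilobase of gene and per 1000000, so levels can be set side by side between genes. The 268 genes were taken from 54532 genes in the deposited table, of which 22046 are annotated as protein-coding. There were 184 Rik names and 84 Gm names. Another 1856 Rik or Gm coding genes stayed under 20 FPKM in both groups, and 585 of these were listed at 0 in all 6 libraries. By the rule that chose the genes, 2 further genes were left out by name. Of the 268, 19 reached 20 FPKM in both groups, 15 in cKO only and 234 in control only. The members were chosen by their group means in FPKM, so for genes that passed in one group only the difference between the groups is a description, with no test.

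The libraries were made from suspensions of STRA8+ testis cells of the mouse, 3 labelled as cKO with the genotype knockout, and 3 labelled as control with the genotype Cre. STRA8 marks germ cells that enter meiosis under retinoic acid. The labels give the control genotype as Cre, and the treatment field reads conditional knockout for both groups. They name neither the deleted gene, the driver of Cre, the strain nor the age, and they do not say whether the 3 libraries of a group came from separate animals. Where they did not, the replicate spread behind each p-value could be technical only. BCAS2 and hnRNPH1 stand in the study title, which places the question in alternative splicing, repair of DNA breaks and synapsis during meiotic prophase I.

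Names of this kind are placeholders. A Rik name is the identifier of a full-length cDNA clone from the RIKEN mouse collection, and its first digits encode the tissue library of the clone. A Gm name is given to a gene model predicted from the genome. Adult testis transcribes many more genes than most other tissues, and most of that wider set appears in spermatocytes and spermatids, the meiotic and haploid stages of male germ cells. X-linked genes are silenced in pachytene spermatocytes, when the sex chromosomes condense into the sex body.

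Promoters of 5 members are shown first, since they hold matches to 3 of the 4 motifs searched across all members and belong to genes whose levels are described in the text. They cover 250 bases before and 50 bases after the RefSeq gene start in GRCm38.p6, in lower case, with motif matches in capitals. The motifs searched on both strands were TGACGTCA (the CRE, bound by CREM in spermatids), GTTGCCA (a half-site of RFX factors), AACTGCC (the MYB motif, bound by the pachytene factor MYBL1) and CNCCTCAG (the STRA8 motif). No matches overlapped in these 5 windows, and none was a CRE. The first gene, 1700029F12Rik (chr13:97034313-97034612, minus strand), had one of the largest differences between the groups, and its window holds 2 MYB matches, 1 on each strand. The second, 1700010I14Rik (chr17:8988083-8988382, plus strand), holds 3 RFX half-sites and 1 STRA8 match, all on the opposite strand. The third, 1700024P04Rik (chr13:98984516-98984815, minus strand), encodes the testis histone H2bl1 and holds 2 STRA8 matches. The fourth, 1700061G19Rik (chr17:56875234-56875533, plus strand), is now called Acsbg3 and holds 1 RFX half-site and 1 MYB match. The fifth, Gm364 (chrX:57408899-57409198, plus strand), was the most abundant member in cKO and holds 1 MYB match.
1700029F12Rik: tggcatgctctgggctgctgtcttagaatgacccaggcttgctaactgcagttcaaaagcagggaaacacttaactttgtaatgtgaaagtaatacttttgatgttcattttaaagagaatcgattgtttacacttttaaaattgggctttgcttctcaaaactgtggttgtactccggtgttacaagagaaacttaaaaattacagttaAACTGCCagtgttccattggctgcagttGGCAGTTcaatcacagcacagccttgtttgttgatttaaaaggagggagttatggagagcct
1700010I14Rik: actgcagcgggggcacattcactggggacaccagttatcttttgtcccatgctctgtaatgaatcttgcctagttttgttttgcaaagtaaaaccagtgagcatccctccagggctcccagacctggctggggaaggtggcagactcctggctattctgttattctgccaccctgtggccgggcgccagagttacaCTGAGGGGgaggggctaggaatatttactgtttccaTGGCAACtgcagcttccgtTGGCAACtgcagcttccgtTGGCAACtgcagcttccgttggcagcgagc
1700024P04Rik (H2bl1): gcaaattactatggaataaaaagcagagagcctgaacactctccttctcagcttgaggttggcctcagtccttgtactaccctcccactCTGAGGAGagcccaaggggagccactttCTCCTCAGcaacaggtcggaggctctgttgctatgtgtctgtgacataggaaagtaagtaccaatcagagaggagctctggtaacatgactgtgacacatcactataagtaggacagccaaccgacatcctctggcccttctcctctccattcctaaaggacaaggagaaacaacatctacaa
1700061G19Rik (Acsbg3): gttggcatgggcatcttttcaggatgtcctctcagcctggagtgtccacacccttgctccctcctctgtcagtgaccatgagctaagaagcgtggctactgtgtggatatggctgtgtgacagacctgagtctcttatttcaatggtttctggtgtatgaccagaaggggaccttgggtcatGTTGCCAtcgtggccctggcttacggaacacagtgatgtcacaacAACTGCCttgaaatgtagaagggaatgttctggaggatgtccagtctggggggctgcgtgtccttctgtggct
Gm364: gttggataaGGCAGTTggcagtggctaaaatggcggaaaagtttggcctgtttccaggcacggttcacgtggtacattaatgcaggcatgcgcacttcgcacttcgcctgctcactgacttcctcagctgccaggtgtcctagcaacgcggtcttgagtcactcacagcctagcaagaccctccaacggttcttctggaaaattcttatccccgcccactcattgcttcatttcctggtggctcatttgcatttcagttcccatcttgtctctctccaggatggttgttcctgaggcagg

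RefSeq promoter windows were found for 200 members, which correspond to 198 RefSeq genes. An RFX half-site was present in 12.6% of the member windows, in 5.02% of the windows of all 27025 RefSeq genes and in 4.802% of those of RefSeq coding genes. The MYB motif stood in 11.1% of member windows, against 4.76% of all windows. The STRA8 motif stood in 12.1% of member windows and 9.12% of all windows, and the CRE in 1.52% and 2.03%. Among the 184 windows of members with a lower mean in cKO, 13.04% held an RFX half-site and 11.4% a MYB match. Each of the 4 motifs was found in 1 of the 14 windows of members with a higher mean in cKO. The number of CG steps was taken from the window of each gene that held the most. Its median was 15 for members higher in cKO and 7 for members lower in cKO. It was 8 for all 27025 RefSeq genes and 15 for RefSeq coding genes. A match describes letters in the window and does not show that a factor binds there.

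The members were far less abundant in cKO than in control libraries. They took 0.517% to 0.539% of the reads of a cKO library, against 3.10% to 3.34% of those of a control library. The mean was higher in cKO for 24 members and lower in cKO for 244. In limma with Benjamini-Hochberg adjustment over 16791 genes, 21 members were called higher and 242 lower, beside 36.2% of all genes tested called higher and 50.4% called lower, or 86.6% in either direction. All 268 passed the filter on low values. The rule used the same means, so nothing is read from these counts. The values of the groups did not overlap for 263 members, beside 88.0% of all genes tested. The median log2 fold change, cKO minus control on the log2(FPKM + 0.5) scale, was -5.87 for the members and -0.41 for all genes tested. Adding 0.5 makes changes of low genes look smaller.

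The cKO level was under 1% of the control level in 163 members, between 1% and 10% in 41, between 10% and 50% in 32 and between 50% and 100% in 8. Among 4161 coding genes with other names and at least 20 FPKM in a group, 623 were under 1%, their median log2 fold change was -1.23, and limma called 26.3% of them higher and 66.9% lower, or 93.2% in all. Rik and Gm coding genes under 20 FPKM that could be tested numbered 444 and had a median of -2.01, with 23.4% called higher and 63.5% lower, or 86.9% in all. At 100 FPKM or more there was 1 member in cKO, Gm364, and there were 71 in control. In the 3 cKO libraries together, 39 members had no read, 33 had 1 to 3 reads and 102 had fewer than 10. In bulk libraries, fewer cells of a type and less RNA per cell cannot be told apart.

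**Figure D1:**
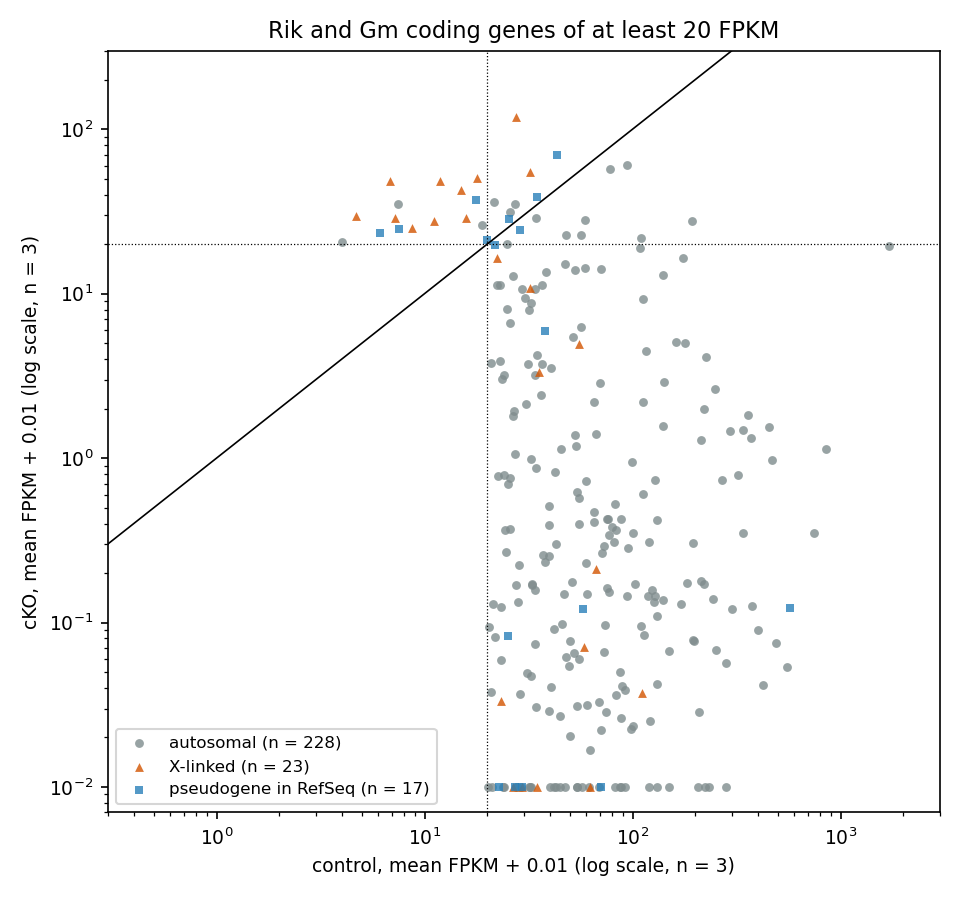
Mean level of each of the 268 members in cKO (vertical axis) and in control (horizontal axis), as FPKM + 0.01 on log scales, n = 3 libraries each. The solid line marks equal levels and the dotted lines 20 FPKM. The legend counts 23 X-linked members apart from those that RefSeq lists as pseudogenes. Most points lie far below the line, 39 of them at 0 in cKO along the bottom edge, while the points above it are mainly X-linked members and pseudogenes.

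The most abundant member in control was Gm5617 on chromosome 9. Gm5617 had 19.7, 20.6 and 18.3 FPKM in cKO libraries, against 2083, 1599 and 1436 FPKM in control libraries. Its cKO level, 1.14% of the control level, lay just under the 20 FPKM limit. The next was 4922502D21Rik, which RefSeq names Clec2m, a C-type lectin of the Clec2 family. It had 0.587, 2.19 and 0.587 FPKM in cKO libraries, against 995, 738 and 818 FPKM in control libraries. In 4933411K16Rik on chromosome 19, cKO libraries gave 0.067, 0.609 and 0.350 FPKM and control libraries 786, 699 and 756 FPKM. All 3 genes passed 20 FPKM in control only, so the rule fixed their lower level in cKO. Their groups did not overlap, as in 88.0% of all genes tested.

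Several of the members most abundant in control had almost no read in cKO libraries. 1700029F12Rik on chromosome 13 had 0, 0.130 and 0 FPKM in cKO and 583, 484 and 586 FPKM in control. On the deposited scale its 3 cKO reads, all in replicate 2, give a level 13015 times higher in control. The exact 95% counting interval is 4453 to 63117. 1700123L14Rik on chromosome 6, which RefSeq lists as a transcribed pseudogene, had 0, 0.339 and 0 FPKM in cKO and 633, 519 and 570 FPKM in control. 1700009N14Rik had 0, 0.196 and 0 FPKM in cKO and 540, 459 and 463 FPKM in control, and 1700013G24Rik had 0, 0.0943 and 0 FPKM in cKO and 419, 407 and 441 FPKM in control. In these 4 genes the only cKO reads came from replicate 2. Fold values from reads, counting intervals and floors all use the deposited scale. Intervals and floors cover counting error only, and not the scaling difference between the groups described below.

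For other abundant members the share left in cKO varied. 1700010I14Rik averaged 0.965 ± 0.626 FPKM in cKO and 471 ± 49.0 FPKM in control (SD, n = 3 each). 2610318N02Rik averaged 1.32 ± 0.328 FPKM in cKO and 370 ± 27.1 FPKM in control. For 1700003E16Rik the means were 1.82 ± 0.413 FPKM in cKO and 359 ± 31.5 FPKM in control. The rest of the 18 most abundant lower members were 4930544G11Rik, 1700003F12Rik, 4933415F23Rik, Gm128, 1700129C05Rik and 1700028J19Rik, with means of 0.110 to 1.48 FPKM in cKO and 294 to 375 FPKM in control, and 1700020D05Rik and 1700074P13Rik, which are given with their roles.

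A current RefSeq name or synonym with a known role was found for 32 members, 3 of which had a higher mean in cKO and 29 a lower one. The list was drawn up with earlier results of these data known. Its median log2 fold change was -6.02, beside -5.87 for all members. 1700024P04Rik encodes the testis-specific histone H2B variant H2bl1. It had no read in the 3 cKO libraries, against 322, 251.5 and 269 FPKM in control. On the deposited scale this was at least 2786-fold lower in cKO, with a floor of 3 reads over the group. 4933416C03Rik (Taf7l2), a relative of the TFIID subunit TAF7, had 11.2, 14.998 and 12.6 FPKM in cKO and 164, 128 and 129 FPKM in control. 4930432K21Rik (Brme1) encodes a meiotic factor that helps to load recombinases at DNA breaks through BRCA2. Brme1 had 13.1, 14.8 and 12.7 FPKM in cKO and 49.5, 35.0 and 30.5 FPKM in control, a log2 fold change of -1.44 ± 0.174 (SE). With FPKM rescaled to one sum per library, the value for Brme1 was -0.29.

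Members with roles in cilia and the sperm flagellum all passed 20 FPKM in control only, so the rule fixed their lower level in cKO. Of all 268 members, 244 had a lower mean in cKO. 1110017D15Rik (Smrp1), named for the manchette of spermatids, had 0.0325, 0.174 and 0 FPKM in cKO and 208, 179 and 202 FPKM in control. 4833427G06Rik (Hoatz), needed for motile cilia and flagella in the mouse, had 0.190, 0.508 and 0.298 FPKM in cKO and 88.0, 70.3 and 71.9 FPKM in control. The cKO libraries lay below the control libraries without overlap for both. B230118H07Rik (Iftap), a partner of intraflagellar transport, averaged 3.75 ± 0.382 FPKM in cKO and 36.8 ± 5.88 FPKM in control. 2700049A03Rik (Talpid3), a centrosomal protein required to form cilia, averaged 5.48 ± 0.554 FPKM in cKO and 51.6 ± 7.97 FPKM in control. Iftap and Talpid3 thus kept about 10.2% and 10.6% of the control level, while Smrp1 kept 0.0351% and Hoatz 0.432%. Gm595 (Fsip2l), a relative of a fibrous sheath protein, kept 9.45%. Gm3417 is 98.8% identical in transcript to the dynein light chain gene Tcte3 and averaged 1.56 ± 0.892 FPKM in cKO and 140 ± 23.2 FPKM in control. Tcte3 itself had 0.0640, 0.137 and 0 FPKM in cKO and 29.3, 22.1 and 3.49 FPKM in control, and reads of the 2 genes may be exchanged in counting.

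A pair of members tie into protein kinase A, which drives sperm motility. 4930435E12Rik (Tex55), which binds the kinase's regulatory subunit, had 0, 0.0646 and 0 FPKM in cKO and 68.3, 61.9 and 50.8 FPKM in control. 1700019D03Rik (smAKAP), a membrane anchor of the kinase, had 0.256, 0.285 and 0.223 FPKM in cKO and 85.03, 67.4 and 62.6 FPKM in control. On the deposited scale the control level of Tex55 was 2864 times the cKO level, from 2 cKO reads. Its exact 95% counting interval was 792 to 23662. Among genes of the actin system, Gm498 (Acte1), an actin gene, averaged 0.0171 ± 0.0175 FPKM in cKO and 44.8 ± 4.73 FPKM in control. C530008M17Rik (Cracd), an inhibitor of actin capping protein, averaged 0.281 ± 0.0388 FPKM in cKO and 73.0 ± 6.56 FPKM in control.

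Members of the cell surface also passed the limit in control only, so the rule fixed their direction. The neighbours 1700025F22Rik (Ms4a19) and 1700017D01Rik (Ms4a20) belong to a family of membrane-spanning proteins. Ms4a19 had no cKO read, against 177, 142 and 131 FPKM in control, at least 2481-fold lower in cKO on the deposited scale. Ms4a20 had 0, 0.0810 and 0.0396 FPKM in cKO and 106, 78.3 and 75.2 FPKM in control. 4930504O13Rik (Lypd9) and Gm4763 (Lypd11), of the LY6/PLAUR family, averaged 2.89 ± 0.984 and 1.93 ± 0.814 FPKM in cKO, against 142 ± 17.9 and 26.8 ± 1.99 FPKM in control. 5330417C22Rik (Elapor1), a lysosome-associated membrane protein, averaged 0.413 ± 0.131 FPKM in cKO and 75.4 ± 8.17 FPKM in control. It overlaps 1700013F07Rik on the opposite strand, and whether counting used strand is not given, so reads of the overlap cannot be told apart.

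Proteases, enzymes and their relatives likewise passed the limit in control only, which fixed their direction. 1700074P13Rik (Tryx5), a trypsin-like protease, had 0, 0.241 and 0 FPKM in cKO and 496, 370 and 340 FPKM in control. Gm4787 (Adam4b), of the ADAM metalloprotease family, averaged 0.0265 ± 0.0306 FPKM in cKO and 83.7 ± 9.03 FPKM in control. 1700061G19Rik (Acsbg3), a relative of acyl-CoA synthetases, averaged 0.369 ± 0.0464 FPKM in cKO and 79.7 ± 11.7 FPKM in control. 1700016K19Rik (Liat1), a ligand of the arginyltransferase ATE1, kept 3.14% of its control level, with 5.07, 4.51 and 5.61 FPKM in cKO and 162, 149 and 172 FPKM in control. 4933406M09Rik (Mgat4f, a relative of N-acetylglucosaminyltransferases), 4931440F15Rik (Fem1al, a relative of Fem1a) and 2610528A11Rik (Gpr15l, a secreted ligand of the receptor GPR15) had cKO means of 0.0277 to 0.115 FPKM and control means of 20.8 to 31.1 FPKM. A copy of 4931440F15Rik in Fem1a at 96.6% identity makes its counts uncertain.

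The members include 2 MAGE genes, of a family of ubiquitin ligase partners best known from germ cells and tumours. The autosomal 1700020D05Rik (synonym mage-g2) had 1.22, 2.13 and 1.28 FPKM in cKO and 536, 400 and 421 FPKM in control. The X-linked 4930550L24Rik (synonym mage-k1) had 33.3, 28.0 and 24.98 FPKM in cKO and 16.6, 16.7 and 14.2 FPKM in control. The autosomal gene reached 20 FPKM in control only and the X-linked gene in cKO only, so the rule fixed each direction.

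**Figure D2:**
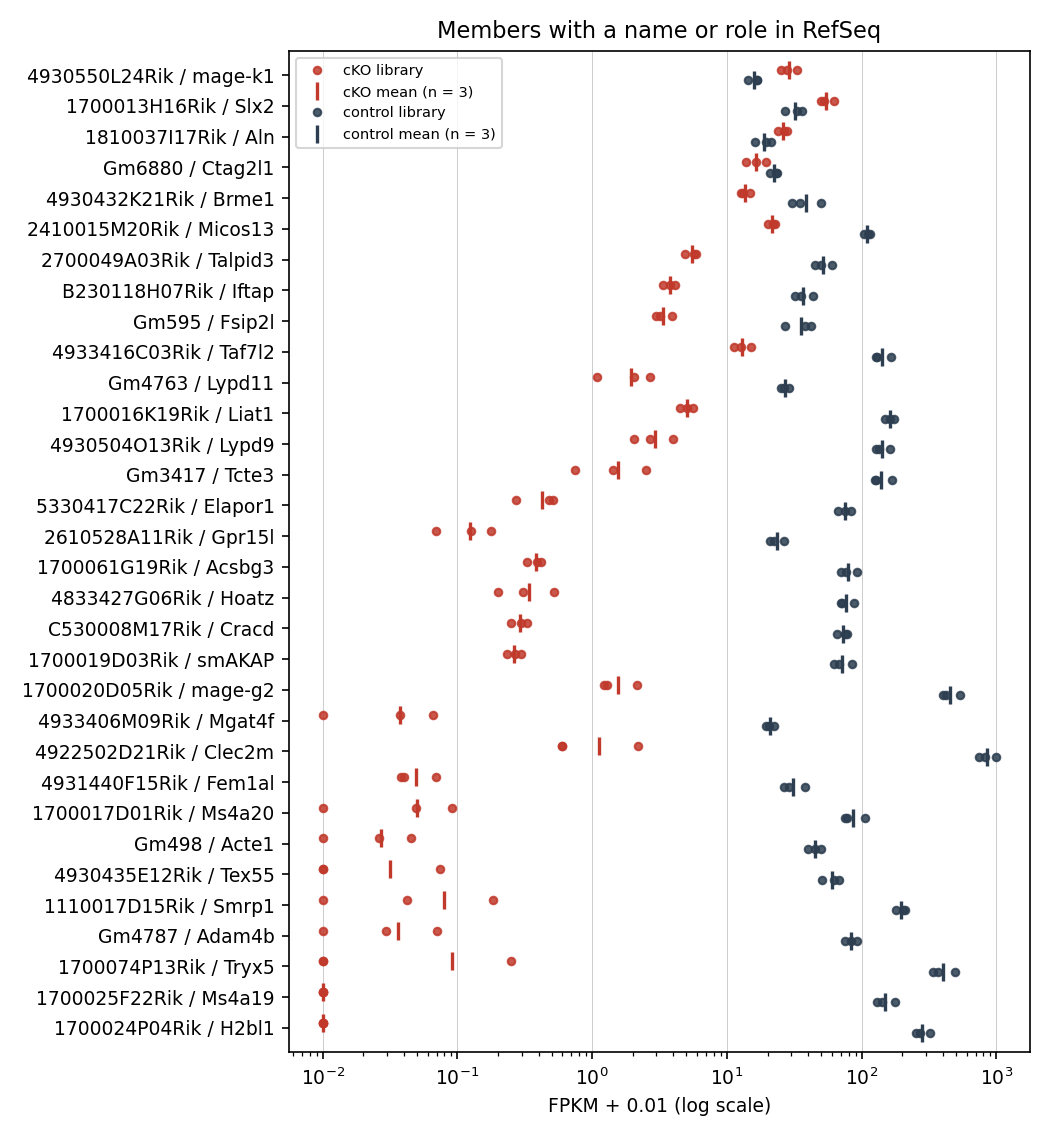
Level of the 32 members with a name or role in RefSeq, as FPKM + 0.01 on a log scale, with each of 3 cKO libraries above the 3 control libraries of the same gene. Points are libraries and bars are group means. From the top, 3 members have the cKO points to the right of the control points, and at the bottom Ms4a19 and H2bl1 have all cKO points at 0.

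The X chromosome held 12 of the 24 members with a higher mean in cKO. Of the 27 X-linked members, 12 had a higher mean and 15 a lower mean in cKO. Of the 241 members elsewhere, 12 had a higher mean. Among named coding genes of at least 20 FPKM, 69 of 100 on the X and 1167 of 4061 elsewhere had a higher mean in cKO. The median log2 fold change was -1.57 for X-linked and -6.07 for other members. These counts describe the members and carry no test, since the rule used the same values.

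Gm364 was the most abundant member in cKO, with 108, 143 and 104 FPKM in cKO libraries, against 24.4, 29.5 and 28.3 FPKM in control libraries. It reached 20 FPKM in both groups and rose by a log2 fold change of 2.08 ± 0.140 (SE), with a limma adjusted p of 2.8e-06. 1700013H16Rik (synonym Slx2), of the X-linked Slx family related to the synaptonemal complex protein SYCP3, also passed in both groups. It had 49.6, 62.5 and 52.2 FPKM in cKO and 33.4, 36.1 and 27.1 FPKM in control, and rose by 0.76 ± 0.137 on the log2 scale (limma adjusted p = 0.00094). In both genes each cKO library lay above each control library, and the direction held under all 4 scalings.

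The other 10 higher X-linked members passed 20 FPKM in cKO only. 8030474K03Rik had 45.9, 48.4 and 51.5 FPKM in cKO and 4.57, 9.04 and 6.81 FPKM in control, the largest of these differences at 7.14-fold. Its neighbour Gm4779 starts 232 bases away on the other strand and had 50.2, 47.4 and 48.6 FPKM in cKO and 11.3, 12.4 and 11.9 FPKM in control. Gm15262 had 25.1, 33.8 and 30.2 FPKM in cKO and 3.55, 5.74 and 4.68 FPKM in control. The rule fixed the direction of these 3 genes. Their groups did not overlap, as in 88.0% of all genes tested. Gm14569 averaged 42.6 ± 9.97 FPKM in cKO and 14.9 ± 4.14 FPKM in control, and 1700011M02Rik, a lncRNA in RefSeq, averaged 50.4 ± 8.33 FPKM in cKO and 17.96 ± 4.65 FPKM in control. Gm773, Gm9112, 4933402E13Rik and Gm21887, named after their values were seen, averaged 23.2 to 28.9 FPKM in cKO and 6.07 to 11.1 FPKM in control. RefSeq lists Gm21887 under Erdr1, and it has a near-identical copy. 4930550L24Rik completes the 10.

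Of the 15 X-linked members with a lower mean in cKO, 1700020N15Rik and Gm6812, whose transcripts share 99.4% identity, had means of 0 and 0.0607 FPKM in cKO and 62.6 and 58.5 FPKM in control. Gm6880 (Ctag2l1), a relative of cancer/testis antigens, had 16.4, 13.8 and 19.3 FPKM in cKO and 23.4, 22.9 and 20.8 FPKM in control. Its log2 fold change was -0.44 ± 0.131 (SE) on the deposited scale and lay between 0.46 and 0.73 under the 3 other scalings. Gm10488 had no cKO read and 52.3, 49.5 and 2.23 FPKM in control, so control replicate 3 stood apart. Without that replicate its log2 fold change was -6.68 in place of -5.27. Gm10488 has 20 near-identical copies, among which reads may be divided.

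**Figure D3:**
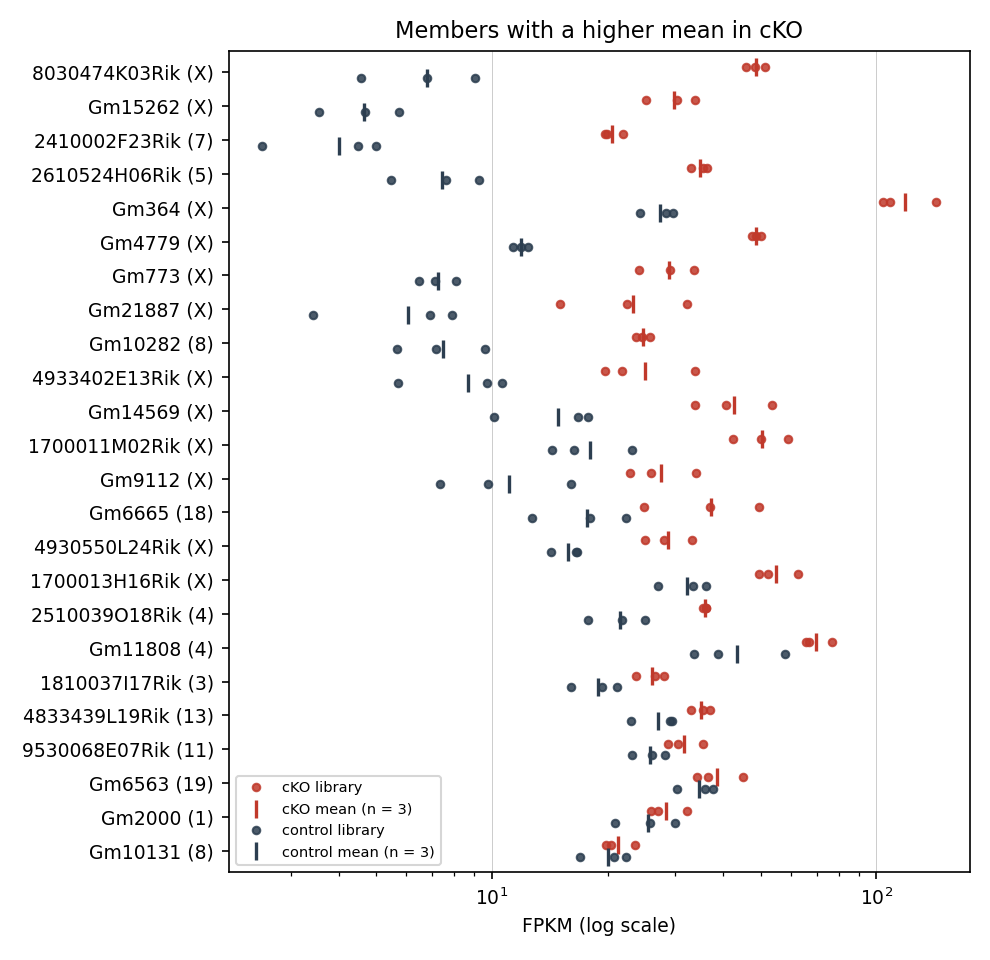
Level of the 24 members with a higher mean in cKO, as FPKM on a log scale, with the chromosome in brackets. Each gene has its 3 cKO libraries above its 3 control libraries, and bars are group means. The genes run from 8030474K03Rik, with 7.14-fold higher levels in cKO, to Gm10131, in which the groups overlap.

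Autosomal members higher in cKO included 2610524H06Rik on chromosome 5, with 33.0, 35.5 and 36.2 FPKM in cKO and 5.47, 9.24 and 7.63 FPKM in control. 2410002F23Rik on chromosome 7 was just inside the limit in cKO, with 21.9, 19.8 and 19.9 FPKM, against 2.53, 4.49 and 4.99 FPKM in control. Both genes passed 20 FPKM in cKO only, so the rule fixed their direction. Their groups did not overlap, as in 88.0% of all genes tested. 1810037I17Rik (synonym Aln), a small membrane protein that inhibits the calcium pump SERCA, had 26.5, 23.7 and 28.0 FPKM in cKO and 19.3, 16.1 and 21.1 FPKM in control. The other members closest to the limit on the inside were Gm3460, at 0 FPKM in cKO and 20.1 FPKM in control, and Gm35060, at 0.0845 FPKM in cKO and 20.5 FPKM in control. On the outside were 4933428M09Rik, at 0.270 FPKM in cKO and 19.995 FPKM in control, Gm7072, at 5.82 FPKM in cKO and 19.9 FPKM in control, and 2200002J24Rik, at 0.882 FPKM in cKO and 19.8 FPKM in control.

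The 19 members with at least 20 FPKM in both groups could be tested without the limit having fixed a difference. Of these, 6 rose and 9 fell in limma on the deposited scale, 6 of the 9 with a change of direction under at least 2 of the other scalings, while 4 did not pass. This stood beside 29.0% of 1223 named coding genes of the same level called higher and 51.8% called lower, or 80.8% in either direction. The risers beside Gm364 and 1700013H16Rik were Gm11808, 2510039O18Rik, 4833439L19Rik and 9530068E07Rik. Gm11808 had 66.8, 65.7 and 76.8 FPKM in cKO and 38.7, 57.8 and 33.7 FPKM in control, and rose by 0.71 ± 0.190 on the log2 scale (limma adjusted p = 0.0079). 2510039O18Rik had 36.1, 36.2 and 35.5 FPKM in cKO and 17.8, 21.8 and 25.1 FPKM in control, a log2 fold change of 0.74 ± 0.127 (SE) with a limma adjusted p of 0.00073. 4833439L19Rik rose by 0.37 ± 0.117 (limma adjusted p = 0.017) and 9530068E07Rik by 0.29 ± 0.116 (limma adjusted p = 0.048). The call of 4833439L19Rik was lost without cKO replicate 3 (limma adjusted p = 0.060). That of 9530068E07Rik was lost without cKO replicates 1 or 3 or control replicates 1 or 2, with limma adjusted p-values of 0.081 to 0.15, and also without the filter (0.076), without the trend (0.077) and with the replicate block (0.095).

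Among those that fell, 1700037H04Rik had 26.1, 29.6 and 27.4 FPKM in cKO and 224, 177 and 181 FPKM in control, a log2 fold change of -2.78 ± 0.114 (SE) with a limma adjusted p of 1.3e-07. 2410015M20Rik (Micos13) encodes a subunit of the MICOS complex, which shapes the cristae of mitochondria. Micos13 had 22.7, 20.1 and 22.1 FPKM in cKO and 112, 103 and 116 FPKM in control and fell by 2.32 ± 0.0890 on the log2 scale (limma adjusted p = 9.1e-08). 1810013L24Rik had a change of -1.29 ± 0.109 (limma adjusted p = 1.1e-05), which was -0.12 with FPKM rescaled and -0.06 with quantile normalization, neither called. Gm1673 and 2310061I04Rik had changes of -1.06 ± 0.119 and -1.05 ± 0.111 on the deposited scale (limma adjusted p of 5.6e-05 and 4.0e-05), but above 0 with FPKM rescaled and with quantile normalization.

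Small falls depended on the scaling. 2610507B11Rik had 59.8, 57.8 and 64.3 FPKM in cKO and 100.2, 87.2 and 96.0 FPKM in control, a log2 fold change of -0.63 ± 0.0901 (SE, limma adjusted p = 0.00024), but between 0.28 and 0.93 under the 3 other scalings. D030056L22Rik had a change of -0.45 ± 0.0795 (limma adjusted p = 0.00085), but between 0.46 and 1.07 under the others. 9430015G10Rik at -0.31 ± 0.125 (limma adjusted p = 0.048) and 1110004F10Rik at -0.24 ± 0.0812 (limma adjusted p = 0.024) turned in the same way. The call of 1110004F10Rik was lost without cKO replicates 1 or 3 or control replicate 3, with limma adjusted p-values of 0.050 to 0.076, and also without the trend (0.057) and with the replicate block (0.075). That of 9430015G10Rik was lost without any library except cKO replicate 2, with 0.050 to 0.15, and also with a pseudocount of 0.1 (0.051), without the filter (0.078), without the trend (0.074) and with the replicate block (0.051).

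The scales differ because a read was worth different amounts in the 2 groups. The reads summed over the table were 14770320 to 15204127 per cKO library and 14532453 to 16963019 per control library, but 1 FPKM on a gene of 1 kilobase stood for 20.2 to 21.6 reads in cKO and 10.04 to 13.1 reads in control. Over all genes tested, rescaling moved the median change on the log2 scale by 1.12 with FPKM rescaled to a sum of 1000000, by 0.94 with quantile normalization and by 0.83 with reads rescaled to 1000000. Across the 4 scalings 24 members had a higher level in cKO and 232 a lower one every time, while 12 changed direction. With the 3 other scalings 31 members were called higher and 229 to 232 lower.

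**Figure D4:**
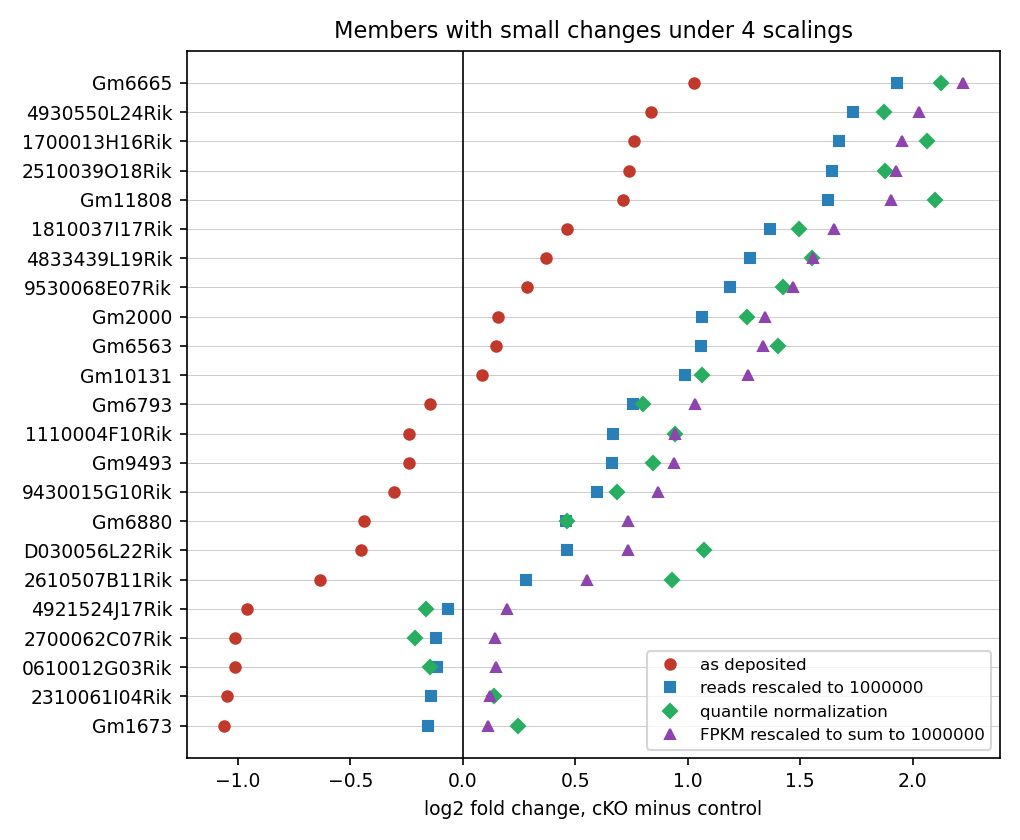
Log2 fold change, cKO minus control, of the 23 members within 1.1 of 0 on the deposited scale, under the deposited scale and 3 other scalings. The 12 members from Gm1673 to Gm6793 lie left of 0 as deposited and right of it under at least 1 other scaling, while the 11 above them stay right of 0 throughout.

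Some members that are copies of housekeeping genes differed little between the groups on the deposited scale. Near-identical transcripts of another gene, with at least 95% identity over at least 50% of the transcript, were found for 32 members. The search covered protein-coding transcripts of GENCODE M21 only. Gm6563 and Gm9493, processed pseudogenes in that annotation, were therefore not searched. Gm10131, 99.9% identical to Erh, had 20.4, 19.8 and 23.6 FPKM in cKO and 20.8, 16.96 and 22.4 FPKM in control. Erh itself averaged 34.7 ± 1.44 FPKM in cKO and 42.8 ± 5.31 FPKM in control. Gm2000, 99.6% identical to the ribosomal protein gene Rpl35, averaged 28.4 ± 3.36 FPKM in cKO and 25.5 ± 4.53 FPKM in control. Gm6793, 98.3% identical to Hnrnpa3, averaged 19.6 ± 4.68 FPKM in cKO and 21.9 ± 5.98 FPKM in control. In all 3 the groups overlapped, as they did in Gm6563, with 34.2, 45.0 and 36.5 FPKM in cKO and 30.4, 35.8 and 37.6 FPKM in control, and in Gm9493, with 19.9, 28.4 and 24.9 FPKM in cKO and 32.7, 27.1 and 26.4 FPKM in control. Gm9493 lies opposite 1700028P14Rik, which averaged 0.0185 FPKM in cKO and 209 FPKM in control. The limma adjusted p was 0.53 for Gm10131, 0.34 for Gm2000, 0.31 for Gm6563 and 0.16 for Gm9493. Without control replicate 2 the change of Gm10131 was -0.03 in place of 0.09, and without control replicate 3 that of Gm6793 was 0.07 in place of -0.14. Under the 3 other scalings the changes of Gm10131, Gm2000 and Gm6563 lay between 0.99 and 1.40, and those of Gm6793 and Gm9493 turned positive.

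Other copies differed between the groups. Gm10282, 99.3% identical to the chromatin protein gene Hmgn2, averaged 24.7 ± 1.098 FPKM in cKO and 7.49 ± 1.97 FPKM in control, and Hmgn2 itself averaged 41.2 ± 2.18 FPKM in cKO and 8.54 ± 0.974 FPKM in control. Gm6665, which aligns over 145 of its 258 bases to the glutathione transferase gene Gstm2, had 49.4, 37.0 and 24.9 FPKM in cKO and 12.7, 17.997 and 22.3 FPKM in control, and Gstm2 averaged 65.2 ± 15.9 FPKM in cKO and 31.8 ± 7.48 FPKM in control. Gm11361, named Rps18-ps5 in RefSeq, had 6.32, 5.86 and 5.57 FPKM in cKO and 35.6, 34.9 and 43.3 FPKM in control. Rps18 averaged 109 ± 3.26 FPKM in cKO and 43.0 ± 0.881 FPKM in control. Levels of copies are uncertain, because the handling of reads that match several places is not stated in the labels.

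Families of near-identical members lie on chromosome 14, chromosome 5 and the X. On chromosome 14, 1700001F09Rik, Gm3486, Gm3676, Gm4181 and Gm47189 had cKO means of 0 to 0.0550 FPKM and control means of 23.2 to 87.6 FPKM. A second family there, of Gm10338, Gm10413, Gm21103, Gm3460, Gm5458 and Gm5797, had no cKO read and control means of 20.1 to 47.3 FPKM. On chromosome 5, 4933402N22Rik, Gm5152 and Gm8906, near-identical to Speer1, had no cKO read and control means of 21.2 to 70.7 FPKM. The pair 1700018F24Rik and Gm4871, 98.0% identical, averaged 0 and 0.0563 FPKM in cKO, against 130 and 73.1 FPKM in control. All members of these families passed the limit in control only, so the rule fixed their lower level in cKO.

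Clone codes, RefSeq classes and gene structure were not part of the rule, and the levels are set beside them as a description. Rik names with clone codes of RIKEN testis libraries made up 144 members, 82 of them with names that start with 1700. Of these, 4 had a higher mean in cKO and 140 a lower one, with a median log2 fold change of -6.58. Among 40 members with other Rik codes 7 had a higher mean, and the median was -2.13. The 84 Gm members had 13 with a higher mean and a median of -5.61. RefSeq matched 250 members, 217 by symbol and 33 by synonym, and lists 219 as protein-coding, 14 as lncRNA and 17 as pseudogenes. The 17 pseudogenes were spread widely, as 7 had a higher mean in cKO and 7 were under 1% of the control level. Their median was -0.24, in a range of -9.91 to 1.86, against a median of -5.96 for those RefSeq calls coding. The longest reading frame had a median of 219 codons over 264 members, from 53 to 4986, and 21 had fewer than 100. The median gene length was 1424 bases for the members and 3352 bases for named coding genes of the same level. There were 36 single-exon genes, 4 with a higher mean in cKO.

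**Figure D5:**
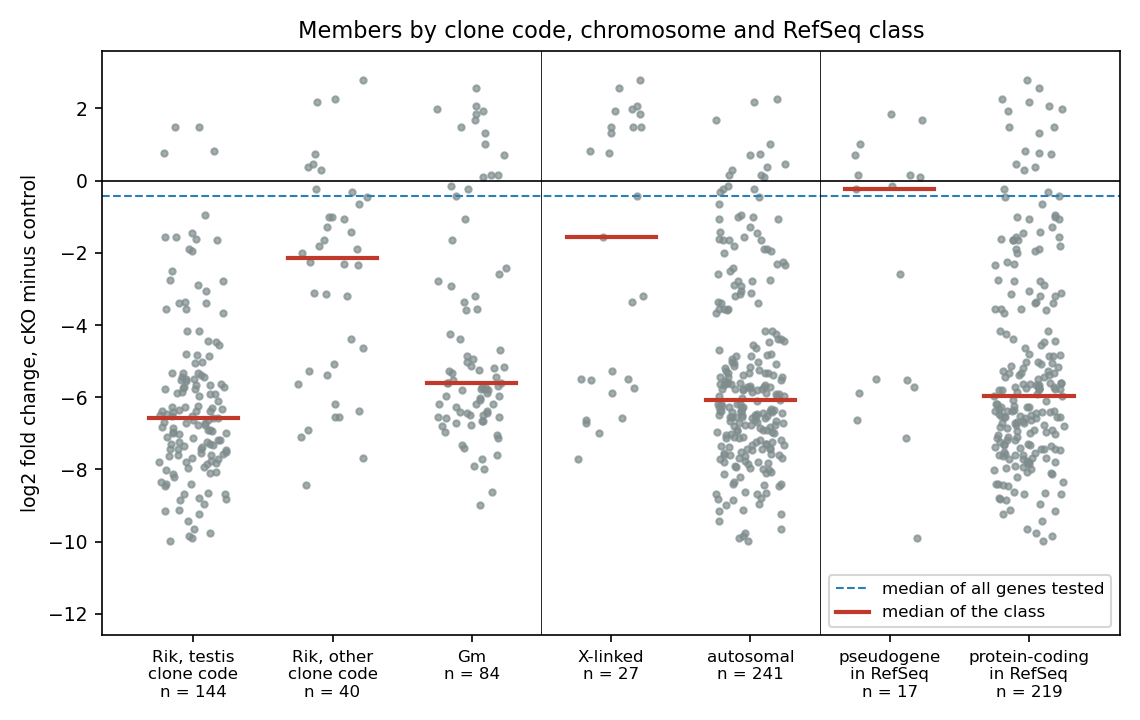
Log2 fold change, cKO minus control, of the members by clone code, chromosome and RefSeq class. Points are genes, the solid bars are class medians and the dashed line is the median of all genes tested, -0.41. The testis clone class has its median at -6.58. The pseudogene class has its median at -0.24, but its points run from -9.91 to 1.86. The 32 members that are lncRNA or unmatched in RefSeq are not drawn in the last classes.

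Replicates of the members spread slightly more than those of named genes. Over members of at least 20 FPKM in the group, the median coefficient of variation was 9.21% in cKO (34 members) and 13.1% in control (253 members), against 7.55% in cKO and 9.80% in control for named coding genes. The 5 largest spreads were in Gm10488, Gm3676, Gm17359, Gm5797 and Gm8906, all in control. Of these Gm17359 had 0.0412, 0.265 and 0.151 FPKM in cKO and 41.3, 86.4 and 99.1 FPKM in control, and it was the single one without a near-identical copy. Gm3676 had 0, 0.165 and 0 FPKM in cKO and 82.9, 39.2 and 35.5 FPKM in control, with its highest value in replicate 1.

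Cell type markers also differed between the groups. The summed FPKM of 11 markers of round and elongating spermatids was 4.48 to 8.72 in cKO and 18869 to 21968 in control, and all 11 fell. That of 8 markers of pachytene spermatocytes was 17.4 to 27.1 in cKO and 4605 to 5587 in control, and all 8 fell. For 7 markers of STRA8+ and early meiotic cells, of which 6 rose and 1 fell, the sums were 734 to 886 in cKO and 541 to 580 in control. For 8 Sertoli cell markers, of which 7 rose, they were 389 to 717 in cKO and 85.9 to 206 in control. The 6 markers of undifferentiated spermatogonia were split, with 3 higher and 2 lower in cKO by limma, and 1 too low to test. Their sum, 231 to 294 in cKO and 45.8 to 63.6 in control, was mostly Uchl1, which averaged 235 FPKM in cKO and 39.0 FPKM in control, while Gfra1 and Id4 fell by 1.02 and 1.73 on the log2 scale (limma adjusted p of 0.00066 and 5.0e-06). Leydig cells, with 1 of 6 markers higher and 3 lower, gave 17.6 to 71.2 in cKO and 89.5 to 151 in control. Peritubular and stromal cells gave 43.3 to 54.3 in cKO and 21.9 to 38.0 in control, and macrophages 82.0 to 270 in cKO and 51.2 to 88.6 in control, with 3 of 6 markers higher and none lower in each list. The macrophage sum of 270 was that of cKO replicate 1, in which Lyz2 had 136 FPKM, against 38.0 and 47.2 FPKM in cKO replicates 2 and 3. Endothelial and erythroid sums stayed under 15 in every library. Bcas2, named in the study's title, averaged 4.85 FPKM in cKO and 19.9 FPKM in control. Hnrnph1, also named there, averaged 140 FPKM in cKO and 63.8 FPKM in control. All levels of markers and title genes given here are on the deposited scale. The other scalings moved the median log2 change over all genes tested upward by 0.83 to 1.12. The extraction text in the labels speaks of retinas, but 7 photoreceptor markers summed to 0.813 to 1.11 FPKM in cKO and 1.98 to 2.22 FPKM in control, with 1 marker at 0 in each group. The share of each cell type in the level of any member was not tested.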

How the data were processed

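RNA libraries of STRA8+ mouse testis cells, 3 cKO and 3 control, were grouped and numbered by their titles. The submitters' processing notes name HISAT2 2.0.5 and mm10. The counter, annotation, strand setting and treatment of multiple hits are unknown, not given in the sources used here. The authors deposited FPKM values with gene length, coordinates and biotype. Multiplied by length, every value was a whole multiple of 1 read in its library (tolerance 0.01), which gave the read numbers quoted.

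The members and gene lists were chosen with earlier results of these data known. The rule took coding genes with Rik or Gm names and a mean of at least 20 FPKM in a group. Levels were tested as log2(FPKM + 0.5) with limma 3.58.1 in R 4.3.3 (empirical Bayes with trend) over 16791 genes that averaged 1 FPKM or more over the 6 libraries, with Benjamini-Hochberg adjustment and a threshold of 0.05. The fit was tested on simulated data with few changed genes and the same scaling in both groups. That simulation does not cover the scaling difference between the groups seen here. Alternatives were pseudocounts of 0.1 and 1, no filter or 5 FPKM, 3 scalings, no trend, limma voom, a replicate block, other level limits and leaving out each library. A pair of further ones, leaving out copies or overlapping genes, were added after the data were seen.

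Values were given for the 14 most abundant members higher in cKO, the 18 most abundant lower ones, the 6 smallest changes, the 5 largest spreads, the 3 on each side of the limit, members with a known role, and copies or neighbours. Members higher in cKO or at 20 FPKM in both groups that fell outside these were added after their values were seen. RefSeq names and promoters (GRCm38.p6) were matched by symbol or synonym. Protein-coding transcripts of GENCODE M21 were compared with blastn 2.17.0. Group spread is the SD over 3 libraries. The comparison of 1 member with its near-identical copy is not reported here.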

Additional observations from a re-analysis of the deposited data

How the results depend on the processing

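For 102 named members, 16 alternative settings gave 1632 values: 1569 kept direction and side of the threshold, 27 lost and 9 gained the call, and 27 changed direction. Direction changed mainly with scaling, given here as the log2 fold change with FPKM rescaled, quantile normalization and reads rescaled. It was 0.94, 0.94 and 0.67 for 1110004F10Rik, 0.55, 0.93 and 0.28 for 2610507B11Rik, 0.87, 0.69 and 0.59 for 9430015G10Rik, 0.73, 1.07 and 0.46 for D030056L22Rik, 1.03, 0.80 and 0.76 for Gm6793, 0.73, 0.46 and 0.46 for Gm6880, and 0.94, 0.85 and 0.66 for Gm9493. With the first 2 scalings it was 0.12 and 0.14 for 2310061I04Rik and 0.11 and 0.25 for Gm1673. Scaling also moved the calls over all genes, 6075 higher and 8462 lower as deposited, to 9109 and 6084, 8745 and 6187, and 8491 and 6527 (FPKM rescaled, quantile, reads rescaled). A filter at 5 FPKM gave 3227 higher and 5320 lower, since fewer genes were tested. Members called higher numbered 40 with a limit of 10 FPKM, 7 with 40 FPKM and 6 with 20 FPKM in both groups; those called lower numbered 161 with 40 FPKM and 9 with 20 FPKM in both groups, since the limit sets who is counted. Leaving out each library gave 19 to 21 members higher and 240 to 242 lower, and 5618 to 6064 genes higher and 7860 to 8609 lower overall; it turned Gm10131 (-0.0255 without control replicate 2, range up to 0.17) and Gm6793 (0.065 without control replicate 3, range down to -0.33). With the replicate number as a block, 20 members were called higher and 240 lower, and 5930 and 8364 genes overall. The labels do not say whether the numbers pair the libraries. Correlations of same-numbered deviations were -0.12, -0.05 and -0.04, and those of differently numbered ones were -0.06 to 0.10. Deviations from a group mean depend on each other, so these values cannot decide pairing. limma voom called 21 members higher and 242 lower. Members with few cKO reads are limited by depth, and the causes were not tested.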

Other observations

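Of the members lower in cKO, 169 had a cKO mean under 1 FPKM. Their reads in cKO libraries numbered 1143, 1436 and 1108 in replicates 1, 2 and 3, with summed levels of 26.6, 36.0 and 24.97 FPKM. Reads were present for 95, 117 and 86 of the 169. For 22 of them cKO replicate 2 was the sole cKO library with a read, against 7 for replicate 1 and 4 for replicate 3. In the same way 1700029F12Rik, 1700123L14Rik, 1700009N14Rik, 1700013G24Rik and 1700074P13Rik had cKO reads in replicate 2 alone. The source of these reads was not tested.

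Within 10000 bases of each other, without overlap, lie 5 pairs of members. Both were lower in cKO in 3 pairs and both higher in 1. Of the 3 pairs, Gm15130 and 4930430A15Rik are listed by RefSeq under the same gene, A26c3. The divergent pair Gm4779 and 8030474K03Rik on the X, 232 bases apart, had log2 fold changes of 1.99 and 2.79. On chromosome 7, Gm36864 had a change of -5.62, while 2410002F23Rik, 3530 bases beyond it on the same strand, had a change of 2.27. On the other side of Gm36864, 54 bases away and divergent, 1700028J19Rik had a change of -7.24. These pairs were picked out after their values were seen.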
